A study of Mus musculus with 18 samples.

Results

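The 9 Wnt ligand genes Wnt3a, Wnt4, Wnt5a, Wnt5b, Wnt7a, Wnt7b, Wnt9a, Wnt10a and Wnt11 were followed in epithelial cells of the mouse lung sorted by a reporter of Wnt/beta-catenin signalling. They were chosen by name, with earlier results of these data known, out of 30102 genes measured. Each was taken from the single probe set that carries its symbol alone, and all 9 were measured. Cells came from mice of the strain TCF/Lef:H2B/GFP, 8 to 12 weeks old, in which a histone fused to green fluorescent protein (GFP) is placed under TCF/Lef control, and every group carries this transgene. The 3 groups were Wnthigh (GFPhigh), Wntlow (GFPlow) and Wntnegative (GFPneg) cells, all EpCAM positive and DAPI negative, taken after CD31 and CD45 positive cells had been depleted on beads. Each group had 6 Affymetrix arrays, each from 8 ng of RNA of cells pooled from 3 to 4 animals. Wnthigh arrays came from experiments 2, 4, 5, 7, 8 and 9, and Wntlow and Wntnegative arrays from experiments 3, 4, 5, 7, 8 and 9. The tissue label names distal lungs, while the dissociation started from lungs with trachea and bronchi.

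Wnt ligands are secreted lipid-modified glycoproteins. Porcupine (Porcn) attaches the lipid in the endoplasmic reticulum, Wntless (Wls) carries the lipidated protein to the cell surface, and Frizzled receptors with Lrp5 or Lrp6 receive it and stabilise beta-catenin, whereas ligands such as Wnt5a and Wnt11 are best known for signalling without beta-catenin, through Ror receptors and the planar polarity proteins. In the lung, Wnt7b of the epithelium is known for its part in the growth of the organ, and Wnt5a for its part in the shaping of the distal airways.

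The arrays fell into 2 runs, experiments 2 to 5 and experiments 7 to 9, with 3 arrays of each group in each. Array medians over all probe sets were 4.62 to 4.77 in experiments 2 to 5 (the earlier run) and 3.55 to 3.69 in experiments 7 to 9 (the later run), so values are given by run and are log2 values on the deposited scale. E-cadherin (Cdh1), a defining marker of epithelium, averaged 16.90 ± 0.19 in Wnthigh, 16.74 ± 0.04 in Wntlow and 16.56 ± 0.01 in Wntnegative arrays of the earlier run, and 17.63 ± 0.07, 17.31 ± 0.07 and 17.30 ± 0.07 in Wnthigh, Wntlow and Wntnegative arrays of the later run (SD, n = 3 each). Cdh1 is 1 of 5 epithelial markers. In Wnthigh against Wntnegative cells 3 of the 5 were higher, 1 was lower and 1 did not pass. All 5 were above the background limit described below on all 6 Wntlow and all 6 Wntnegative arrays, and 4 on all 6 Wnthigh arrays. Of 9 measured beta-catenin feedback genes, 5 were lower, against 24.6% of all genes, 0 were higher, against 15.7%, and 4 did not pass in Wnthigh against Wntnegative cells. The 5 that passed, Axin2 among them, thus ran against the order of the reporter labels. In Wnthigh against Wntlow cells 3 of the 9 were lower, against 16.4% of all genes, 0 higher, against 11.4%, and 6 did not pass. In Wntlow against Wntnegative cells 5 of the 9 were lower, against 13.2%, 0 higher, against 12.3%, and 4 did not pass. Axin2, a feedback inhibitor used as a readout of the pathway, averaged 5.77 ± 0.40 in Wnthigh, 6.22 ± 0.87 in Wntlow and 7.46 ± 0.20 in Wntnegative arrays of the earlier run (SD, n = 3 each). In the later run it averaged 3.90 ± 0.02 in Wnthigh and 4.07 ± 0.25 in Wntlow arrays, all under the background limit of an array, the 95th percentile of its 23 background probe sets, and 5.48 ± 0.17 in Wntnegative arrays (SD, n = 3 each). Since these are sorted bulk samples, fewer cells of a type and less RNA per cell cannot be told apart. Of 7 measured markers of fibroblasts and mesenchyme, which also express Wnt ligands in the lung, 5 lay under the background limit on all 6 arrays of each group, the collagen genes Col1a2 and Col3a1 among them. The median over all probe sets also lay under that limit on every array. Dcn, 1 of the 7, was called in limma, as higher in Wntlow than in Wntnegative cells (adjusted p = 0.0294) and lower in Wnthigh than in Wntlow cells. The mean of the 7 was 4.42 to 4.71 in Wnthigh, 4.63 to 5.03 in Wntlow and 4.55 to 4.68 in Wntnegative arrays of experiments 2 to 5, and 3.26 to 3.28 in Wnthigh, 3.35 to 3.56 in Wntlow and 3.25 to 3.43 in Wntnegative arrays of experiments 7 to 9.

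Promoter windows are shown for Wnt4 and Wnt11, the members with the largest differences in level, because both were higher in Wnthigh cells and the sort itself rested on TCF/Lef sites. Each window runs from 250 bases before to 50 bases after an annotated start, in RefSeq with build GRCm38.p6, on the strand of the gene. The letters searched were CTTTGA, the core of a TCF/Lef site, on both strands, and capitals mark a match. These letters were found in 16% of 32851 promoter windows of the same length.
Wnt4, chr4:137277385-137277684, plus strand: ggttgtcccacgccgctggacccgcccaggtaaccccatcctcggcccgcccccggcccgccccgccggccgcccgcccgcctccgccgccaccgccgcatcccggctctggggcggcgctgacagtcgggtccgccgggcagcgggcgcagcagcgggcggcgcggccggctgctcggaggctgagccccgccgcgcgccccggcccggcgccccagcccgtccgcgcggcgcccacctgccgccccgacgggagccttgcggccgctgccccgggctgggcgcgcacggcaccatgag
Wnt11, start 1, chr7:98834862-98835161, plus strand: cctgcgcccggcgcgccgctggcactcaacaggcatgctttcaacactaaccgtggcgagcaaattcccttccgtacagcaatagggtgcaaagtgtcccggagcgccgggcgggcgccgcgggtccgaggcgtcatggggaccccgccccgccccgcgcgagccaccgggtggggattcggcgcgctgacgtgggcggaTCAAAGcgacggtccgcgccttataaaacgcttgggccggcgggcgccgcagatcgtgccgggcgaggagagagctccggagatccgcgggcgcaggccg
Wnt11, start 2, chr7:98838595-98838894, plus strand: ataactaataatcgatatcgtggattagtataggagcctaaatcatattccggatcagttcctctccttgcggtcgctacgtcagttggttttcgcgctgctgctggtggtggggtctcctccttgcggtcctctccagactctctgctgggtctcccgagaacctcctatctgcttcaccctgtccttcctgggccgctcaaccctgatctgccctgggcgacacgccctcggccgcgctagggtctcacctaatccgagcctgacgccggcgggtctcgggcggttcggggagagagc
The first Wnt11 window held 1 match, at position -50 counted from the start, which reads TCAAAG on the strand of the gene and is preceded by A. The longer form CTTTGAT, read on both strands and including this match, was found in 3.73% of windows. The Wnt4 window and the second Wnt11 window held no match, which says only that these letters are not in them. Likewise, the Wnt11 match says only that the letters are there, and binding or use of the site was not tested. RefSeq windows were found for 6 of the 9 members, so Wnt5a, Wnt7b and Wnt10a were not searched. The only other match in the windows found, also of the longer form, was at position -71 of 1 of the 3 windows of Wnt5b. That gene was under the background limit here and did not pass in any comparison. The Wnt4 window was 84.3% G or C, and the Wnt11 windows 71.3% and 59.3%.

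The ligand genes Wnt4, Wnt11 and Wnt5a were above the background of the arrays on at least 8 arrays each and had their highest means in Wnthigh, intermediate means in Wntlow and lowest means in Wntnegative arrays of both runs. Wnt4 was above the background limit on 14, Wnt5a on 9 and Wnt11 on 8 of 18 arrays. The other 6 members were under it on all 18 arrays. Of 30102 genes, 15502 were above it on at least 3 arrays of a group. The median over all probe sets was under it on every array, so such values are common here and do not show absence. Some values repeated exactly between arrays, and in experiments 2 to 5 Wnt5b had 1 value on 5 of 9 arrays, and Wnt9a and Wnt10a on 4 of 9.

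**Figure D1:**
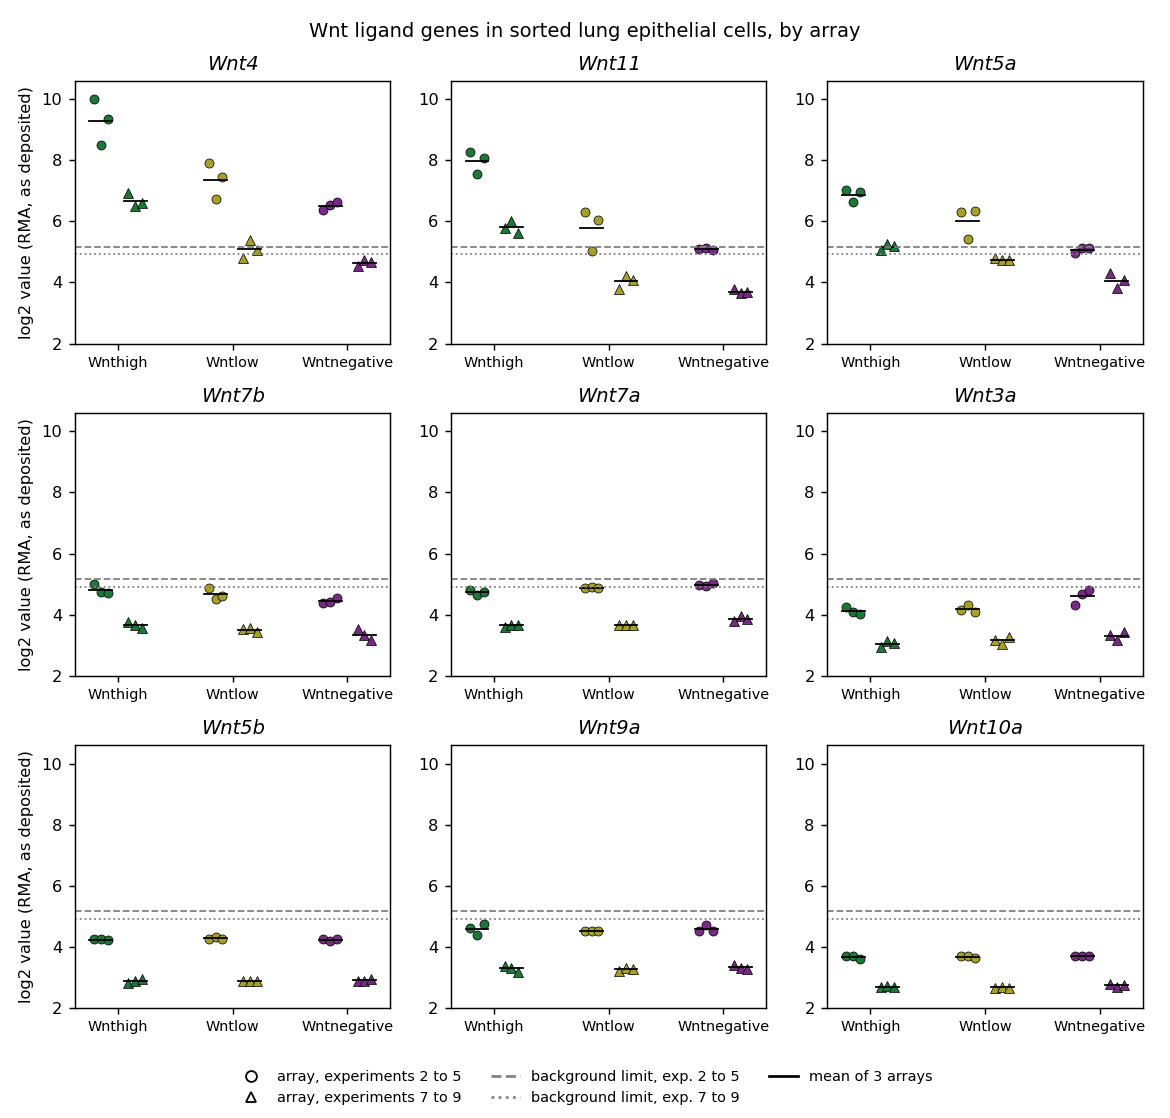
Each panel shows the log2 values of 1 Wnt ligand gene on the 18 arrays, by sorted group, with circles for experiments 2 to 5, triangles for experiments 7 to 9, short bars for the mean of 3 arrays and grey lines for the median background limit of each run. Wnt4, Wnt11 and Wnt5a lie highest in Wnthigh arrays in both runs, and the other 6 genes lie under the background limit on all 18 arrays.

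Wnthigh and Wntnegative cells were compared to ask which ligand genes differ between epithelial cells with strong and without reporter signal. Wnt4, Wnt11, Wnt5a and Wnt7b were higher in Wnthigh cells, Wnt3a and Wnt7a were lower, and Wnt5b, Wnt9a and Wnt10a did not pass. Thus 6 of 9 passed in limma at an adjusted p under 0.05, against 40.3% of all genes, with 4 higher against 15.7% and 2 lower against 24.6%. The members were chosen with earlier results of these data known, so their shares in all comparisons are not those of a blind choice. Of the 10 other Wnt ligand genes, 0 passed here. The same 6 members had no overlap between the groups in both runs, which held for 30.7% of all genes (12.9% higher and 17.8% lower). Of these 6, Wnt7b, Wnt3a and Wnt7a were under the background limit on all 18 arrays. Their measured differences were 0.35, -0.37 and -0.23. The median log2 difference of the 9 was -0.008, and that of all genes -0.046.

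Wnt4, a ligand known for kidney and female reproductive tract development, was at 10.01, 8.50 and 9.36 in the Wnthigh arrays of experiments 2, 4 and 5, at 7.91, 6.72 and 7.46 in the Wntlow arrays of experiments 3, 4 and 5, and at 6.36, 6.55 and 6.63 in the Wntnegative arrays of experiments 3, 4 and 5. In experiments 7, 8 and 9 it was at 6.92, 6.49 and 6.62 in Wnthigh, 4.81, 5.40 and 5.07 in Wntlow and 4.54, 4.74 and 4.67 in Wntnegative arrays. Wnthigh arrays were the highest in both runs and no group overlapped another within a run. Wnt4 rose by a log2 difference of 2.40 in Wnthigh against Wntnegative cells (SE 0.24, adjusted p = 4.88e-07 in limma), with 2.77 in experiments 2 to 5 and 2.03 in experiments 7 to 9. Its Wntnegative arrays were above the background limit in experiments 2 to 5 and under it in experiments 7 to 9. With the dim arrays set at the limit, the difference was at least 2.32, or at least 4.99-fold on the deposited scale. In each of the 5 experiments that gave both groups, the Wnthigh array was the higher one.

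Wnt11, a ligand known for cell movements in the embryo, was at 8.27, 7.56 and 8.08 in the Wnthigh arrays of experiments 2, 4 and 5, at 6.32, 5.04 and 6.04 in the Wntlow arrays of experiments 3, 4 and 5, and at 5.09, 5.12 and 5.08 in the Wntnegative arrays of experiments 3, 4 and 5. In experiments 7, 8 and 9 it was at 5.77, 6.02 and 5.62 in Wnthigh, 3.79, 4.22 and 4.09 in Wntlow and 3.77, 3.64 and 3.70 in Wntnegative arrays. Wnthigh arrays lay apart from both other groups in each run, while the Wntlow array of experiment 4 lay just below the 3 Wntnegative values of its run. Wnt11 rose by 2.49 in Wnthigh against Wntnegative cells (SE 0.20, adjusted p = 4.35e-08), with 2.87 and 2.10 in the runs. All 6 Wntnegative arrays were under the background limit, so the difference was at least 1.90 on the log2 scale, or at least 3.73-fold, with bounds of 2.80 for experiments 2 to 5 and 1.0 for experiments 7 to 9. In each of the 5 shared experiments, the Wnthigh array was the higher one.

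Wnt5a, a ligand of planar polarity and Ror signalling, was at 7.04, 6.64 and 6.96 in the Wnthigh arrays of experiments 2, 4 and 5, at 6.32, 5.43 and 6.33 in the Wntlow arrays of experiments 3, 4 and 5, and at 4.95, 5.12 and 5.13 in the Wntnegative arrays of experiments 3, 4 and 5. In experiments 7, 8 and 9 it was at 5.06, 5.26 and 5.20 in Wnthigh, 4.80, 4.72 and 4.72 in Wntlow and 4.30, 3.82 and 4.07 in Wntnegative arrays. No group overlapped another within a run, and Wnthigh was highest and Wntnegative lowest in both. Wnt5a rose by 1.46 in Wnthigh against Wntnegative cells (SE 0.16, adjusted p = 1.28e-06), with 1.81 and 1.11 in the runs. Since all 6 Wntnegative arrays were under the limit, the difference was at least 1.04, or at least 2.06-fold, with bounds of 1.71 for experiments 2 to 5 and 0.37 for experiments 7 to 9.

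Wnt7b, a ligand of lung epithelium that signals through beta-catenin, was at 4.99, 4.75 and 4.71 in Wnthigh, 4.88, 4.50 and 4.61 in Wntlow and 4.37, 4.40 and 4.53 in Wntnegative arrays of the earlier run. In the later run it was at 3.75, 3.65 and 3.56 in Wnthigh, 3.53, 3.55 and 3.43 in Wntlow and 3.53, 3.32 and 3.18 in Wntnegative arrays. Wnthigh arrays were above Wntnegative arrays in both runs, and Wnt7b passed as higher (adjusted p = 0.00103), but every array was under the background limit, so no fold is given. Wnt7a, a relative of Wnt7b known for limb and uterine patterning, was at 4.82, 4.65 and 4.74 in Wnthigh, 4.86, 4.91 and 4.86 in Wntlow and 4.98, 4.93 and 5.04 in Wntnegative arrays of the earlier run. In the later run it was at 3.60, 3.67 and 3.67 in Wnthigh, 3.67, 3.65 and 3.67 in Wntlow and 3.79, 3.95 and 3.87 in Wntnegative arrays. Wnt7a was lower in Wnthigh than in Wntnegative cells without overlap in either run (adjusted p = 1.01e-04), again under the limit throughout.

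Wnt3a, a strong activator of beta-catenin in the embryo, was at 4.26, 4.07 and 4.03 in Wnthigh, 4.16, 4.31 and 4.10 in Wntlow and 4.33, 4.67 and 4.80 in Wntnegative arrays of the earlier run. In the later run it was at 2.95, 3.13 and 3.06 in Wnthigh, 3.17, 3.04 and 3.26 in Wntlow and 3.33, 3.17 and 3.44 in Wntnegative arrays. It was lower in Wnthigh than in Wntnegative cells (adjusted p = 0.00163), and did not pass in experiments 7 to 9 alone (adjusted p = 0.0704). Wnt5b, a close relative of Wnt5a, averaged 4.23 ± 0.02, 4.27 ± 0.05 and 4.23 ± 0.03 in Wnthigh, Wntlow and Wntnegative arrays of the earlier run (SD, n = 3 each). Its difference between Wnthigh and Wntnegative cells had a 95% interval of -0.07 to 0.05. Wnt9a, known for joint formation, and Wnt10a, known for tooth and skin appendages, had intervals of -0.14 to 0.09 and -0.10 to 0.02. These intervals describe a signal under the background limit, where a difference in RNA may leave little trace.

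**Figure D2:**
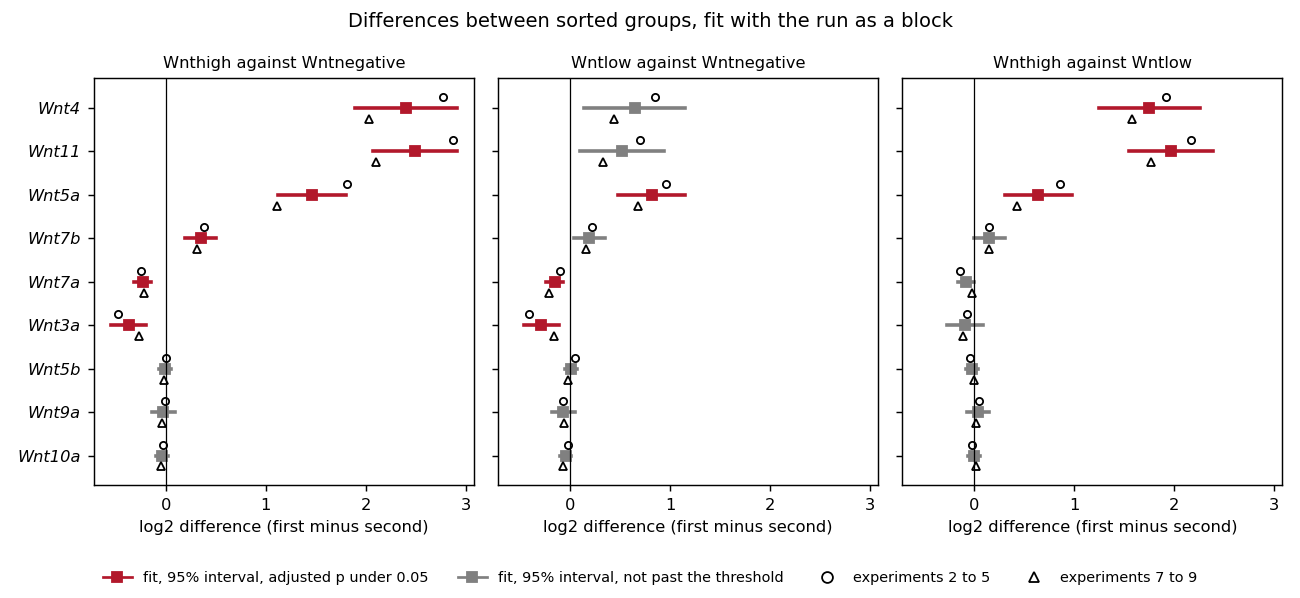
Squares give the log2 difference of each Wnt ligand gene in the fit with the run as a block, bars its 95% interval, circles the difference within experiments 2 to 5 and triangles that within experiments 7 to 9, in 3 panels for the 3 comparisons, with red for an adjusted p under 0.05. Wnt4, Wnt11 and Wnt5a stand at 2.40, 2.49 and 1.46 for Wnthigh against Wntnegative cells, as measured, and differences of the 6 genes under the background limit are drawn as measured and are not folds.

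Wntlow and Wntnegative cells were compared to place the ligand genes in cells of intermediate reporter signal. Wnt5a was higher in Wntlow cells, Wnt3a and Wnt7a were lower, and the other 6 members did not pass. This was 3 of 9, against 25.5% of all genes, with 1 higher against 12.3% and 2 lower against 13.2%. The 2 lower ones were under the background limit on all 18 arrays. Wnt4 and Wnt5a were higher and Wnt7a lower without overlap in both runs, 3 of 9 against 15.5% of all genes (8.99% higher and 6.48% lower). Wnt5a rose by 0.82 (SE 0.16, adjusted p = 0.00108), with measured differences of 0.96 and 0.68 in the runs. It was at least 0.86 in experiments 2 to 5, while in experiments 7 to 9 both groups were under the background limit. It did not pass in experiments 2 to 5 alone (adjusted p = 0.0562). Wnt4 differed by 0.65 (SE 0.24, adjusted p = 0.0584), and in experiments 3, 4 and 5, where all its arrays were above the background limit, by 1.55, 0.17 and 0.83. Wnt11 had a measured difference of 0.52 (SE 0.20, adjusted p = 0.0672), but its Wntnegative arrays were all under the limit, and so were 4 of its 6 Wntlow arrays, all 3 of the later run among them. With dim Wntnegative arrays at the limit, the Wnt11 means differed by 0.63 in experiments 2 to 5. The groups overlapped there, since the Wntlow array of experiment 4 was itself under the limit. Wnt11 did not pass in that run alone (adjusted p = 0.237 in limma). With the experiment number as a block, 6 of 9 passed, since Wnt4 (adjusted p = 0.0207), Wnt7b (adjusted p = 0.0307) and Wnt11 (adjusted p = 0.0497) joined as higher. Without experiment 4, Wnt4 (adjusted p = 0.0242) and Wnt11 (adjusted p = 0.0137) passed, and Wnt4 also without experiment 2 (adjusted p = 0.0216). Wnt7b did so without experiment 7 (adjusted p = 0.0417). With array medians aligned, Wnt4 (adjusted p = 0.0330), Wnt11 (adjusted p = 0.0361) and Wnt7b (adjusted p = 0.0120) also passed, and so they did with quantile normalization. The call for these 3 genes thus lay near the threshold.

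The decreases of Wnt3a and Wnt7a in Wntlow cells did not hold under all settings. Wnt7a (adjusted p = 0.00691) was below Wntnegative arrays in both runs, but did not pass with array medians aligned (adjusted p = 0.191), with quantile normalization over all arrays (adjusted p = 0.251), or in experiments 2 to 5 alone (adjusted p = 0.298). Wnt3a (adjusted p = 0.0187) overlapped in the later run and did not pass with array medians aligned (adjusted p = 0.0504), though it did with quantile normalization (adjusted p = 0.0380). It did not pass without experiment 4 (adjusted p = 0.0550) or 5 (adjusted p = 0.0930), or in either run alone (adjusted p = 0.0972 and 0.344).

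Wnthigh and Wntlow cells were compared to separate strong from intermediate reporter signal. Wnt4, Wnt11 and Wnt5a were higher in Wnthigh cells and no member was lower. This was 3 of 9 called against 27.9% of all genes, with 3 higher against 11.4% and 0 lower against 16.4%. Wnt11 rose by 1.97 (SE 0.20, adjusted p = 3.85e-06), at least 1.53 with dim arrays at the limit. Wnt4 rose by 1.75 (SE 0.24, adjusted p = 3.19e-05), and 5 of its 6 Wntlow arrays were above the limit. Wnt5a rose by 0.64 (SE 0.16, adjusted p = 0.00503), at least 0.56, and did not pass in experiments 2 to 5 alone (adjusted p = 0.0668). For the 3 genes the groups did not overlap in either run, which held for 18.4% of all genes (8.04% higher and 10.3% lower). Wnt7b did not pass (adjusted p = 0.151), and did so without experiment 3 (adjusted p = 0.0465). The comparisons share arrays, so their values for a gene are not independent.

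The Wntlow arrays differed among themselves. In the earlier run, Wnt4, Wnt11 and Wnt5a were lowest in experiment 4, at 6.72, 5.04 and 5.43. Several marker means were lowest there too. For 9 measured markers of ciliated cells, the multiciliated cells of the airways, it was 9.38, against 12.49 and 11.83 in experiments 3 and 5. The club, goblet and mucous, neuroendocrine and epithelium marker means were 15.56, 11.77, 5.35 and 13.03 there. These were also the lowest among the Wntlow arrays of that run. Highest there were the means of alveolar type II (17.69), alveolar type I (9.66), mesothelium (6.24), endothelium (6.08), fibroblast (5.03) and smooth muscle (4.51) markers. All Wntlow arrays of the later run were under the background limit for Wnt11 and Wnt5a, and their order was not read. Over the groups the ciliated mean was 12.92 to 13.16 in Wnthigh, 9.38 to 12.49 in Wntlow and 6.02 to 7.25 in Wntnegative arrays of experiments 2 to 5. In experiments 7 to 9 it was 12.34 to 12.39 in Wnthigh, 8.54 to 10.25 in Wntlow and 4.52 to 5.01 in Wntnegative arrays. Of all genes, 15.7% were higher and 24.6% lower in Wnthigh than in Wntnegative cells. These shares were 12.3% and 13.2% for Wntlow against Wntnegative cells, and 11.4% and 16.4% for Wnthigh against Wntlow cells. Of the 9 ciliated markers, 7 were higher in Wnthigh and 8 in Wntlow than in Wntnegative cells, and none was lower. In Wnthigh against Wntlow cells 7 were higher and 2 lower. For 8 markers of alveolar type II cells, which make surfactant, the mean was 12.71 to 16.68 in Wnthigh arrays of the earlier run. It was 16.21 to 17.69 in Wntlow and 17.88 to 17.90 in Wntnegative arrays of that run. Of these 8 markers, 7 were lower in Wnthigh and 3 in Wntlow than in Wntnegative cells. In Wnthigh against Wntlow cells 4 of them were lower, and 0 were higher in any comparison. All 6 markers of club cells, the secretory cells of the airways, were higher in Wnthigh and in Wntlow than in Wntnegative cells, and 4 of them were lower in Wnthigh than in Wntlow cells. Of 7 markers of goblet and mucous cells, 5 were higher and 1 lower in Wnthigh than in Wntnegative cells, all 7 were higher in Wntlow than in Wntnegative cells, and all 7 lower in Wnthigh than in Wntlow cells. Their mean was 7.16 to 10.88 in Wnthigh, 11.77 to 12.40 in Wntlow and 5.30 to 5.91 in Wntnegative arrays of the earlier run. In the later run it was 7.91 to 8.13 in Wnthigh, 12.38 to 13.44 in Wntlow and 4.38 to 5.07 in Wntnegative arrays. Of 3 measured markers of neuroendocrine cells, 2 were higher in Wnthigh and 2 in Wntlow than in Wntnegative cells, and 1 was higher in Wnthigh than in Wntlow cells. Their mean was 6.46 to 7.37 in Wnthigh, 5.35 to 6.13 in Wntlow and 4.93 to 5.31 in Wntnegative arrays of the earlier run, and 6.32 to 6.54 in Wnthigh, 5.43 to 6.52 in Wntlow and 3.96 to 4.18 in Wntnegative arrays of the later run. Of 8 markers of alveolar type I cells, which line the air spaces, 7 were lower and 1 higher in Wnthigh than in Wntnegative cells. The part of cell composition in the ligand differences was not tested. Without the Wntlow arrays of experiments 3 and 4, Wnt5a still passed as higher in Wntlow than in Wntnegative cells with 0.92, Wnt11 passed (adjusted p = 0.0221), and Wnt3a did not (adjusted p = 0.0553).

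**Figure D3:**
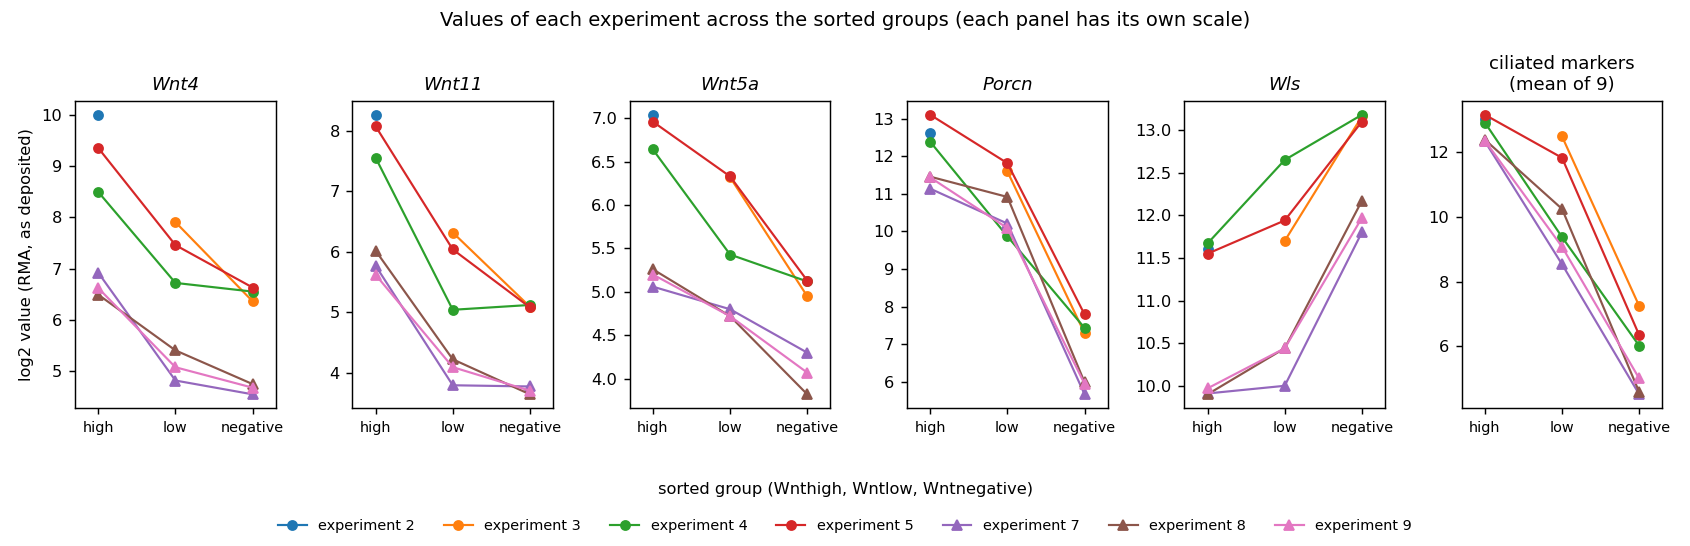
Lines join the arrays of 1 experiment over the sorted groups for Wnt4, Wnt11, Wnt5a, Porcn, Wls and the mean of 9 ciliated cell markers, in log2 values with a scale of its own in each panel. Wnt4, Wnt11, Wnt5a and Porcn are highest in the Wnthigh array of each of experiments 4, 5, 7, 8 and 9, Wls is lowest there, and the Wntlow array of experiment 4 is the lowest Wntlow array of the earlier run for Wnt4, Wnt11, Wnt5a, Porcn and the ciliated markers.

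Wnt4, Wnt11 and Wnt5a varied together over the 18 arrays. Many of these values were under the background limit, since Wnt4 was above it on 14 arrays, Wnt5a on 9 and Wnt11 on 8. With each gene centred on its run, Pearson's r was 0.980 between Wnt4 and Wnt11, 0.912 between Wnt5a and Wnt11 and 0.908 between Wnt4 and Wnt5a. These values describe arrays that fall into 3 groups and share experiments. Among 10569 protein-coding genes with a mean above the median of all genes, the patterns most like that of Wnt4 were those of Ttll13 (r = 0.989) and Kazn (r = 0.986). For Wnt11 they were Plin5 (r = 0.996) and Tulp3 (r = 0.990), and for Wnt5a Btbd11 (r = 0.982) and Engase (r = 0.980). Likeness was lower for the members under the background limit, with Washc3 (r = 0.923) and Cap1 (r = 0.917) for Wnt7b, Eif3a (r = 0.938) and Pds5b (r = 0.923) for Wnt7a, and Pdp2 (r = 0.872) and Trpt1 (r = 0.860) for Wnt3a.

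The 10 other mouse Wnt ligand genes were Wnt1, Wnt2, Wnt2b, Wnt3, Wnt6, Wnt8a, Wnt8b, Wnt9b, Wnt10b and Wnt16, and all were under the background limit on all 18 arrays. None passed between Wnthigh and Wntnegative cells in limma (3 at an unadjusted p under 0.05), and none between Wnthigh and Wntlow cells (0 at an unadjusted p under 0.05). Between Wntlow and Wntnegative cells 1 of 10 passed, Wnt1, with a mean of 2.81 in Wntlow and 2.93 in Wntnegative arrays (adjusted p = 0.0273). The median log2 difference of the 10 was -0.031 for Wnthigh against Wntnegative cells.

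Genes that lipidate and carry Wnt ligands changed in opposite directions. Porcn, which every Wnt ligand described here is thought to need for its lipid, was at 12.62, 12.39 and 13.11 in Wnthigh, 11.60, 9.87 and 11.82 in Wntlow and 7.29, 7.43 and 7.79 in Wntnegative arrays of the earlier run. In the later run it was at 11.14, 11.46 and 11.44 in Wnthigh, 10.21, 10.92 and 10.09 in Wntlow and 5.66, 5.98 and 5.94 in Wntnegative arrays. No group overlapped another within a run. Porcn rose by 5.35 in Wnthigh (SE 0.29, adjusted p = 4.15e-09) and by 4.07 in Wntlow (SE 0.29, adjusted p = 1.90e-07) against Wntnegative cells.

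Wls was at 11.60, 11.67 and 11.55 in Wnthigh, 11.70, 12.65 and 11.94 in Wntlow and 13.16, 13.18 and 13.10 in Wntnegative arrays of the earlier run. In the later run it was at 9.91, 9.90 and 9.97 in Wnthigh, 10, 10.44 and 10.44 in Wntlow and 11.80, 12.17 and 11.97 in Wntnegative arrays. Wntnegative arrays were the highest in both runs. Wls fell by 1.80 in Wnthigh (SE 0.15, adjusted p = 7.92e-08) and by 1.37 in Wntlow (SE 0.15, adjusted p = 1.06e-05) against Wntnegative cells. Of 9 measured genes for lipidation, secretion and inactivation, 2 were higher and 4 lower in Wnthigh than in Wntnegative cells, where 15.7% of all genes were higher and 24.6% lower, and their median was -0.052. The retromer genes, whose products recycle Wls, were split, with Vps26a at -1.35 (SE 0.17) and Vps35 at 0.44 (SE 0.10). In Wnthigh against Wntlow cells Vps35 was also higher, by 0.63 (SE 0.10). Notum, which removes the lipid outside the cell, had a measured difference of -1.18 (SE 0.16), at least 0.85 in size with dim arrays at the limit. Wif1, a secreted protein that binds Wnt ligands, averaged 12.13 ± 0.20 in Wnthigh, 8.84 ± 1.24 in Wntlow and 5.43 ± 0.48 in Wntnegative arrays of the earlier run, and 11.59 ± 0.12 in Wnthigh, 6.79 ± 0.78 in Wntlow and 4.54 ± 0.18 in Wntnegative arrays of the later run (SD, n = 3 each).

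Receptors and polarity genes also moved both ways between Wnthigh and Wntnegative cells. Of 18 receptor and co-receptor genes 4 were higher, against 15.7% of all genes, and 9 lower, against 24.6%, with a median of -0.237. The share that was higher is close to that of all genes. Fzd4 rose by 2.32 (SE 0.19). Ror1, a receptor of Wnt5a, averaged 5.43 ± 1.57 in Wnthigh and 10.18 ± 0.14 in Wntnegative arrays of the earlier run, and 3.89 ± 0.38 in Wnthigh and 8.6 ± 0.23 in Wntnegative arrays of the later run (SD, n = 3 each), a measured difference of -4.73 (SE 0.58), at least 4.22 in size. Lrp5, a co-receptor of the beta-catenin branch, fell by 2.72 (SE 0.31), and Reck, a co-receptor for Wnt7 ligands, fell by 2.11 (SE 0.24), at least 1.97 in size. Of 12 measured planar polarity and Dishevelled genes 6 were higher and 3 lower, against the same shares, with a median of 0.095. Vangl1 rose by 3.03 (SE 0.20), Celsr1 by 1.66 (SE 0.11) and Prickle2 by 1.56 (SE 0.12, at least 0.99), all parts of the membrane complexes that orient cells in a sheet, and Daam1, which links Dishevelled to actin, fell by 1.85 (SE 0.16).

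In Wntlow against Wntnegative cells 3 receptor genes were higher and 6 lower, and 4 polarity genes higher and 2 lower, where 12.3% of all genes were higher and 13.2% lower. Celsr2 rose by 2.16 (SE 0.24) in Wntlow cells, the largest difference of the polarity list there, and was lower in Wnthigh than in Wntlow cells by a measured difference of -1.07 (SE 0.24, adjusted p = 0.00270). In Wnthigh against Wntlow cells 5 receptor genes were higher and 5 lower, with Fzd6 up by 1.25 (SE 0.17) and Fzd8 at -0.98 (SE 0.13). There 5 polarity genes were higher and 3 lower, where 11.4% of all genes were higher and 16.4% lower, with Vangl1 up by 1.77 (SE 0.20).

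**Figure D4:**
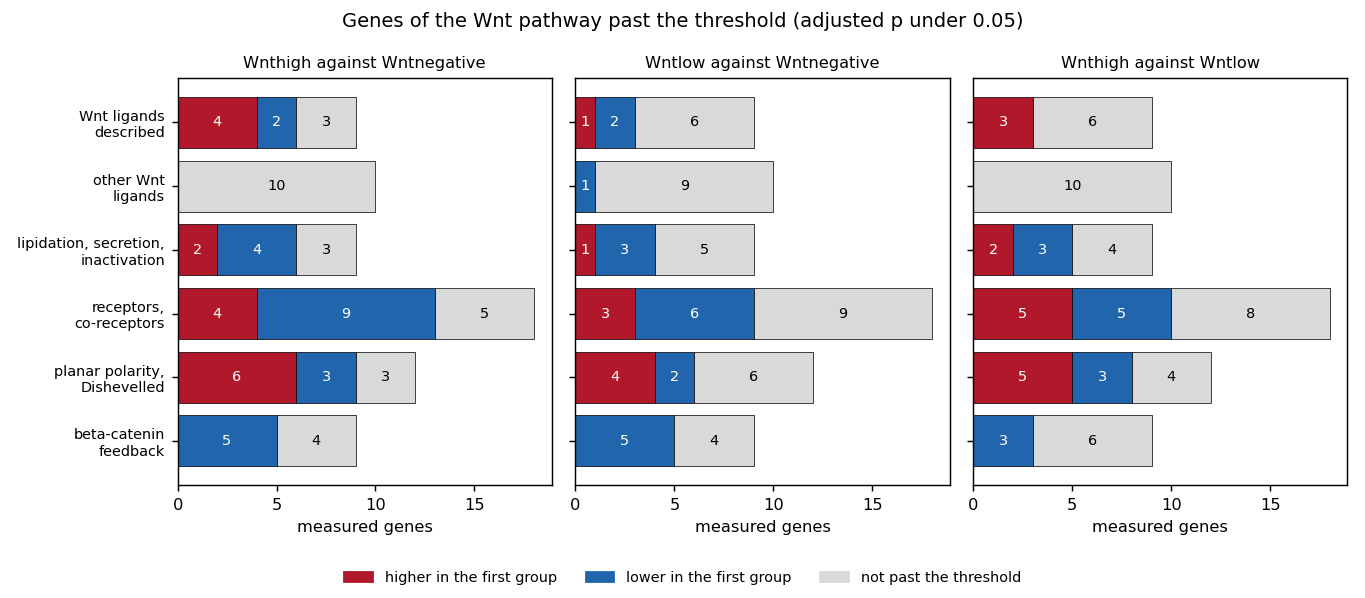
Bars count the measured genes of each Wnt pathway list that were higher (red) or lower (blue) in the group named first, or did not pass (grey), in 3 panels for the 3 comparisons, at an adjusted p under 0.05 in limma. Of the 9 Wnt ligand genes described, 4 are higher and 2 lower in Wnthigh than in Wntnegative cells, while the 9 measured beta-catenin feedback genes have 5 lower and 0 higher.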

How the data were processed

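RNA of sorted lung epithelial cells was measured on 18 arrays. The authors deposited log2 values of 72688 probe sets, made with RMA (per the submitters' processing notes). Software, version and build: not given in the sources used here. The lowest value was 1.79 and the highest 19.93, and a 16-bit scanner ends at log2 16, so differences are those of the deposited scale. The runs differ in median and in decimals (5 and 6).

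Among 65770 probe sets other than controls, the platform annotation gives 30439 a single symbol, 2146 several and 33185 none, and 827 symbols were updated by gene identifier. The brightest probe set stood for a gene, which left 30102 genes, with no filter on low values.

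Differences were fitted by limma 3.58.1 in R 4.3.3 on all 18 arrays, with lmFit, eBayes and two-sided tests, with terms for group and run and Benjamini-Hochberg adjustment over all genes of a comparison at 0.05. The procedure was first tested on simulated data. Replicates are pools of separate experiments, and their number limits the precision. An array was under background at or below the 95th percentile of its 23 background probe sets. Where all 3 arrays of the lower group in a run were, they were set at that limit for an "at least" value. That value is a difference of means and does not allow for sampling error.

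The labels' experiment number pairs arrays of different groups. Residuals from group means correlated at 0.487 to 0.802 in 16 pairs, and at -0.146 to 0.409 with run means removed, 8 of them over 0.1.

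The members and lists were chosen with earlier results of these data known. The text names all members, up to 4 called genes of each list and comparison with the largest differences, Porcn, Wls, Axin2 and Wif1, and the 2 genes most like each called member. Alternatives were no block, the replicate block, a single run, centred or quantile-normalized arrays, a dim-gene filter, the mean of probe sets, only the compared groups, trended robust variances and leaving out experiments, plus leaving out the Wntlow arrays of experiments 3 and 4, chosen after seeing the data.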

Additional observations from a re-analysis of the deposited data

Results flagged for a closer look

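With each gene centred on its run, the arrays of each group were compared for the 9 Wnt ligand genes, 27 sets of 6 arrays in all, of which chance sets apart about 1 in 20. In 2 of them, 1 array lay far from the other 5. Wnt5a in the Wntlow array of experiment 4 was at -0.56, against 0.06 to 0.34 in the other 5, with a deposited value of 5.43. Wnt5b in the same array was at 0.09, against -0.01 to 0.00, with a deposited value of 4.33, under the background limit. In the earlier run, the same array had the lowest Wntlow means of ciliated (9.38), club (15.56), goblet and mucous (11.77) and neuroendocrine (5.35) markers. Its mean of epithelium markers (13.03) was the lowest too. Highest there were the means of alveolar type II (17.69), alveolar type I (9.66), mesothelium (6.24), endothelium (6.08), fibroblast (5.03) and smooth muscle (4.51) markers.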

How the results depend on the processing

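Over 468 checks of the 9 members (27 differences under 18 other settings, less those the dim-gene filter left out), 430 stayed on the same side of the threshold, 20 no longer passed, 18 newly passed and 0 changed direction while called. With no block, members called were 3, 0 and 1 for Wnthigh against Wntnegative, Wntlow against Wntnegative and Wnthigh against Wntlow cells, against 6, 3 and 3 in the fit reported, and genes called over the whole table were 2820, 1059 and 1349, against 12129, 7682 and 8396. That fit leaves the offset between runs in the spread. With the replicate block, 6 members were called for Wntlow against Wntnegative cells, and no other member's call changed. With the dim-gene filter, the 3 members left, Wnt4, Wnt5a and Wnt11, passed in all 3 comparisons, which is 3 for Wnthigh against Wntnegative cells. The filter keeps a gene through the group where it is high and tests fewer genes, so these calls say nothing of stability. With quantile normalization over all arrays, 5 passed for Wntlow against Wntnegative cells, and in experiments 2 to 5 alone 0 (2486 genes of the table). Of the 9 members in limma, 0 with no block and 2 in experiments 2 to 5 alone had an unadjusted p under 0.05 there. In experiments 7 to 9 alone 7906 and 4472 genes were called for Wnthigh and Wntlow against Wntnegative cells, and in experiments 2 to 5 alone 3288 for Wnthigh against Wntlow. Single runs hold fewer arrays. The cause of the other changes was not tested. Leaving out each experiment in turn gave 6 members in all cases for Wnthigh against Wntnegative, 2 to 4 for Wntlow against Wntnegative and 3 to 4 for Wnthigh against Wntlow cells. Signal over background limits Wnt3a, Wnt5b, Wnt7a, Wnt7b, Wnt9a and Wnt10a, for which a change in RNA may be missed.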

Other observations

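The background limit was set by the background probe sets with the fewest G or C bases. Those with 3, 4 and 5 such bases per probe averaged 5.34, 5.21 and 4.86 in experiments 2 to 5 and 5.45, 4.96 and 4.53 in experiments 7 to 9, and those with 10 averaged 3.14 and 2.95. The base composition of the Wnt probes is not used here.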
